A study of Mus musculus with 40 samples.

Results

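Cadherins are calcium-dependent adhesion proteins that hold neighbouring cells together, and protocadherins are their larger sister family in the nervous system. Classical cadherins of type I and type II link adherens junctions to actin through catenins, and differences in the type II set are known to sort motor neurons into pools. The clustered protocadherins are encoded by the alpha, beta and gamma clusters, in which each cell chooses its promoters largely at random, and the non-clustered protocadherins of the delta groups steer axons and cell movement. The members described here are the protein-coding genes of the deposited table with a mouse symbol made of Cdh and digits, or one that starts with Pcdh. They number 92 of 55487 genes. By class they comprise 5 type I cadherins, 13 type II cadherins, 5 other *Cdh* genes, 57 clustered protocadherins and 12 non-clustered protocadherins. A further symbol match, *Pcdhgb8*, is annotated as a polymorphic pseudogene and stayed outside the rule.

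The study asked how stimulated ES-astrocytes act on motor neurons grown on top of them. ES-astrocytes and ES-motor neurons were differentiated with retinoic acid and smoothened agonist from a non-commercial mouse embryonic stem cell line. That line was made from B6.Cg-Tg(Hlxb9-GFP)1Tmj/J mice and carries eGFP under the Hb9 promoter, so every group comes from a single genetic background. ES-astrocytes were further passaged in medium with serum and growth factors, and then treated with forskolin before the stimulus. ES-motor neurons did not go through these steps before plating, so such steps cannot be told apart from cell type. ES-astrocytes received control medium, IL-1α with TNF-α (labelled IL-1a+TNF-a), C1Q with C5 (C1Q+C5), IL-1β with IL-6 (IL-1b+IL-6) or TGF-β2 (TGF-b2) for 24 hours, and ES-motor neurons sorted for eGFP were plated on them. ES-motor neurons are therefore labelled by what the ES-astrocytes beneath them had received, and they were defined by Hb9 promoter activity. After co-culture the cell types were sorted apart, so libraries of both types may come from the same co-culture. The comparisons below did not use such pairs. About 200 sorted cells went into each of 40 libraries, 4 replicates (A to D) for each of 5 treatments in each cell type. Polyadenylated RNA was copied with oligo-dT primers and tagmented with Tn5.

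Total counts ranged from 1510823 to 16054290 in the 20 ES-astrocyte libraries, with a median of 4670242. In the 20 ES-motor neuron libraries they ranged from 6557 to 19717324, with a median of 1213482. Totals below 491892, which is 20% of the median of all 40 libraries, occurred in 9 libraries, all of ES-motor neurons. These were C1Q+C5 replicate A with 6557 counts, the 4 IL-1a+TNF-a libraries, IL-1b+IL-6 replicates B and D, TGF-b2 replicate A and control replicate C. Control and IL-1a+TNF-a libraries carried plate index 1 and the other 3 stimuli plate index 2, so for those 3 stimuli the plate and the stimulus cannot be told apart. Both cell types were present on each plate index.

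Levels are given as CPM, the usual scaling of counts to the library total, here with TMM factors. A gene is said to be called when edgeR's adjusted p was at most 0.05 and the log2 fold change was above 1 or below -1. Of 7 motor neuron markers 6 were called, all higher in ES-motor neurons, led by *Mnx1* with a log2 fold change of 8.70 (SE 0.72, adjusted p 1.26e-12), *Isl1* (3.30) and *Chat* (6.07), while *Lhx3* was not called (-0.40). *Mnx1* encodes Hb9, whose promoter drove the eGFP of the sort, so its difference was set by the sort and is no check of the label. It was also the most abundant marker of the list in ES-motor neurons, with a mean of 1055 CPM. Summed over the other 6 markers, 19 of 20 ES-motor neuron libraries lay above every ES-astrocyte library (15.2 to 93.1 CPM), with a median of 351 CPM, and C1Q+C5 replicate A had no count of them. Of 6 general neuron markers 3 were called, all higher, led by *Nefl* (3.71), *Nefm* (3.43) and *Stmn2* (1.71), yet *Stmn2* also averaged 974 CPM in ES-astrocytes. Of 8 astrocyte markers, 4 were called lower in ES-motor neurons, led by *Fabp7* (-5.79), *Slc1a3* (-6.80) and *Slc1a2* (-2.90), and *Sox9* was called higher (1.75). The defining markers *Aqp4* and *Aldh1l1* were not counted in any library and *Gfap* had 1 count, in an ES-motor neuron library, so the astrocyte label rests on the other markers.

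Markers of other cells that the sorts could hold moved with the ES-astrocyte libraries. All 4 tested of 5 progenitor markers were called lower in ES-motor neurons, led by *Mki67* (-8.29), *Pax6* (-3.32) and *Nes* (-2.32), and so were all 3 tested of 7 fibroblast markers, *Dcn* (-9.49), *Col1a1* and *Col1a2*. *Col1a1* summed to 3 counts over the ES-motor neuron libraries against 3883 over the others, a ratio of 717 (95% Clopper-Pearson interval 245 to 3476), and *Col1a2*, with 1728 counts against 0, was at least 319-fold lower. Summed fibroblast markers spanned 37.0 to 1122 CPM in ES-astrocytes, with *Dcn* the most abundant, against at most 5.92 CPM in ES-motor neurons, where *Col1a2* and *Lum* had no count. Their part in the differences below was not tested. No endothelial (0 of 5 tested) or pluripotent marker (0 of 4) passed the filter on low counts. The single tested epithelial marker *Epcam* (-1.44) and microglial marker *Csf1r* (1.53), and the oligodendrocyte markers *Mbp* (1.84) and *Olig2* (0.29), were tested but not called by edgeR at adjusted p values from 0.229 to 0.914. *Tek*, *Emcn*, *Cldn4*, *Aif1*, *P2ry12*, *Pou5f1* and *Zfp42* had no count in any library.

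Of the 92 members, 9 were not counted in any library. Among *Cdh* genes these were E-cadherin *Cdh1*, muscle cadherin *Cdh15*, endothelial *Cdh5*, *Cdh19*, *Cdh16*, *Cdh17* and *Cdh26*; the others were *Pcdhb1* and *Pcdh12*. A further 12 were counted but too low for the comparison of the cell types, and 71 were tested. In that comparison of all 40 libraries, with treatment as a term, edgeR called 26 of the 71 tested members, 36.6%, where 14.9% of all 13227 genes tested were called. Higher in ES-motor neurons were 21 members (3.86% of all genes) and lower were 5 (11% of all genes). An unadjusted p under 0.05 was found for 32 members, beside 28.4% of all genes. The median log2 fold change over tested members was 0.50 and over all genes -0.21; with *Cdh20*, which had no count in ES-motor neurons, set at its bound the median of the members stayed at 0.50. Genes of the alpha and gamma clusters share most of their counts, as described below, and without them 12 of 36 members were called, 33.3%. In libraries of sorted cells, fewer cells of a type and less RNA per cell cannot be told apart. With control libraries alone, 4 against 4, only *Pcdh7* was called, 1 of 57 tested members, beside 228 of 10199 genes.

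**Figure D1:**
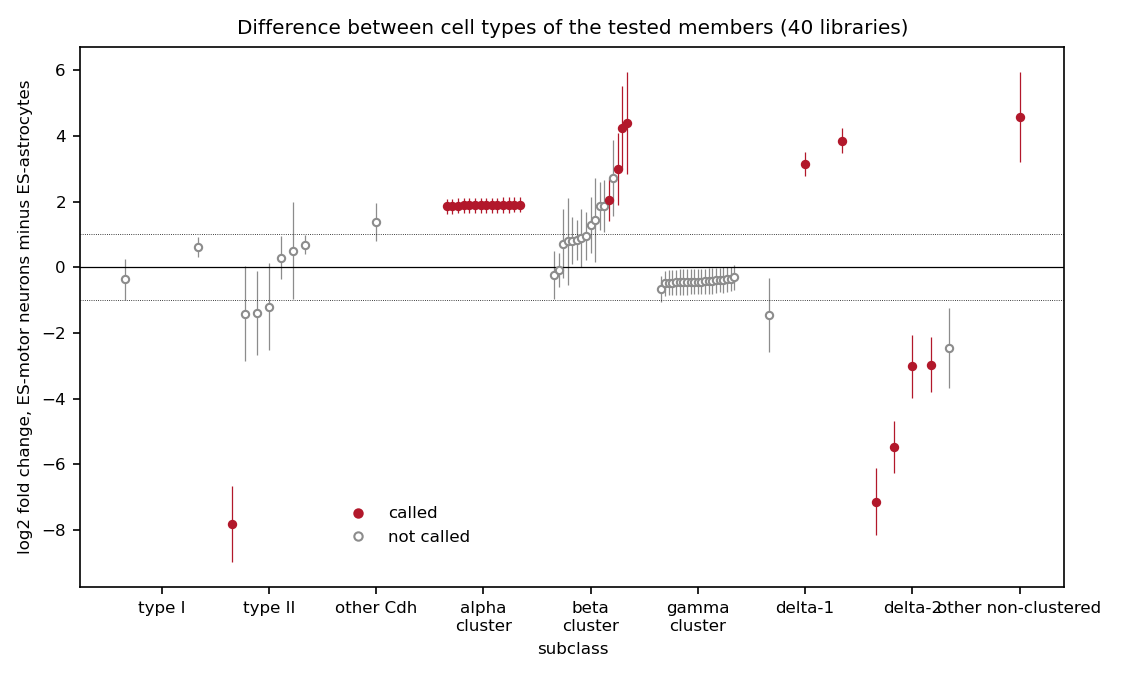
Log2 fold change of each tested member between ES-motor neurons and ES-astrocytes over 40 libraries, by subclass; bars are 1 SE, filled red points are called by edgeR and dotted lines mark 1 and -1. The 14 alpha genes, which share their counts, lie together near 1.9, and 4 of 5 delta-2 protocadherins are called lower.

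Among the delta-1 protocadherins, homophilic adhesion proteins of axons and dendrites, *Pcdh7* and *Pcdh9* stood far higher in ES-motor neurons. *Pcdh7* (chr5:57717967-58133230) ranged from 35.5 to 427 CPM in ES-motor neurons, with a median of 199, and from 0 to 42.8 CPM in ES-astrocytes, with a median of 11.02. All but 1 of the ES-motor neuron libraries, 19 of 20, lay above the highest ES-astrocyte library. The log2 fold change was 3.86 (SE 0.39, adjusted p 7.79e-11), and it was 3.97 within plate index 1 and 3.89 within plate index 2. *Pcdh9* (chr14:93013410-93890679) had 41.5 to 257 CPM in ES-motor neurons, with a median of 128, and 0 to 70.9 CPM in ES-astrocytes, with a median of 11.7. Here 18 of 20 ES-motor neuron libraries exceeded the highest ES-astrocyte library, and the log2 fold change was 3.14 (SE 0.36, adjusted p 1.77e-09), with 2.57 and 3.59 within the plates. By treatment the difference in *Pcdh7* ran from 3.33 in control to 4.57 with TGF-b2, and that in *Pcdh9* from 1.84 with IL-1a+TNF-a to 3.81 with TGF-b2. The X-linked *Pcdh11x* was low in both cell types, counted in 8 ES-astrocyte and 6 ES-motor neuron libraries, and was not called (-1.45, SE 1.11). *Pcdh1* did not pass the filter; it was counted in 6 and 3 libraries.

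The delta-2 protocadherins, which are known to bind the WAVE complex of actin regulators, went the other way: 4 of 5 were called, all lower in ES-motor neurons. *Pcdh17* was counted in every ES-astrocyte library, at 2.30 to 49.8 CPM with a median of 14.7, and in 5 of 20 ES-motor neuron libraries, at up to 4.63 CPM. As many as 18 of 20 ES-motor neuron libraries lay below the lowest ES-astrocyte library (log2 fold change -5.48, SE 0.79, adjusted p 3.88e-07). In the 9 shallow libraries 3 counts correspond to at least 6.73 CPM, so the lack of a count there does not place them below. Without the shallow libraries *Pcdh17* was called as well (-5.17). *Pcdh18* had a median of 9.59 and a maximum of 30.3 CPM in ES-astrocytes, where 4 of 20 libraries had no count, and was counted in a single ES-motor neuron library, control replicate B, at 0.614 CPM. Its log2 fold change was -7.14 (SE 1.02, adjusted p 3.37e-07), and both genes were called within each plate index, *Pcdh17* at -6.46 and -4.87 and *Pcdh18* at -6.17 and -7.98. By limma-voom *Pcdh18* was not called (-1.74). *Pcdh10* had a median of 10.3 CPM in ES-astrocytes (0 to 31.2) and was counted in 6 of 20 ES-motor neuron libraries, at up to 7.25 CPM. *Pcdh19*, the X-linked gene of a human epilepsy, had a median of 8.73 CPM in ES-astrocytes (0 to 44.9) and was likewise counted in 6 ES-motor neuron libraries, at up to 12.4 CPM. The groups overlapped for both, with log2 fold changes of -2.96 for *Pcdh10* (SE 0.83, adjusted p 0.00672) and -3.02 for *Pcdh19* (SE 0.95, adjusted p 0.0174). Neither was called within a plate index (*Pcdh10* -2.47 and -3.22, *Pcdh19* -2.03 and -4.77) or without the 9 shallow libraries (-2.78 and -3.08). *Pcdh8*, counted in 9 ES-astrocyte and 3 ES-motor neuron libraries, was tested but not called (-2.45, SE 1.21, adjusted p 0.174).

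**Figure D2:**
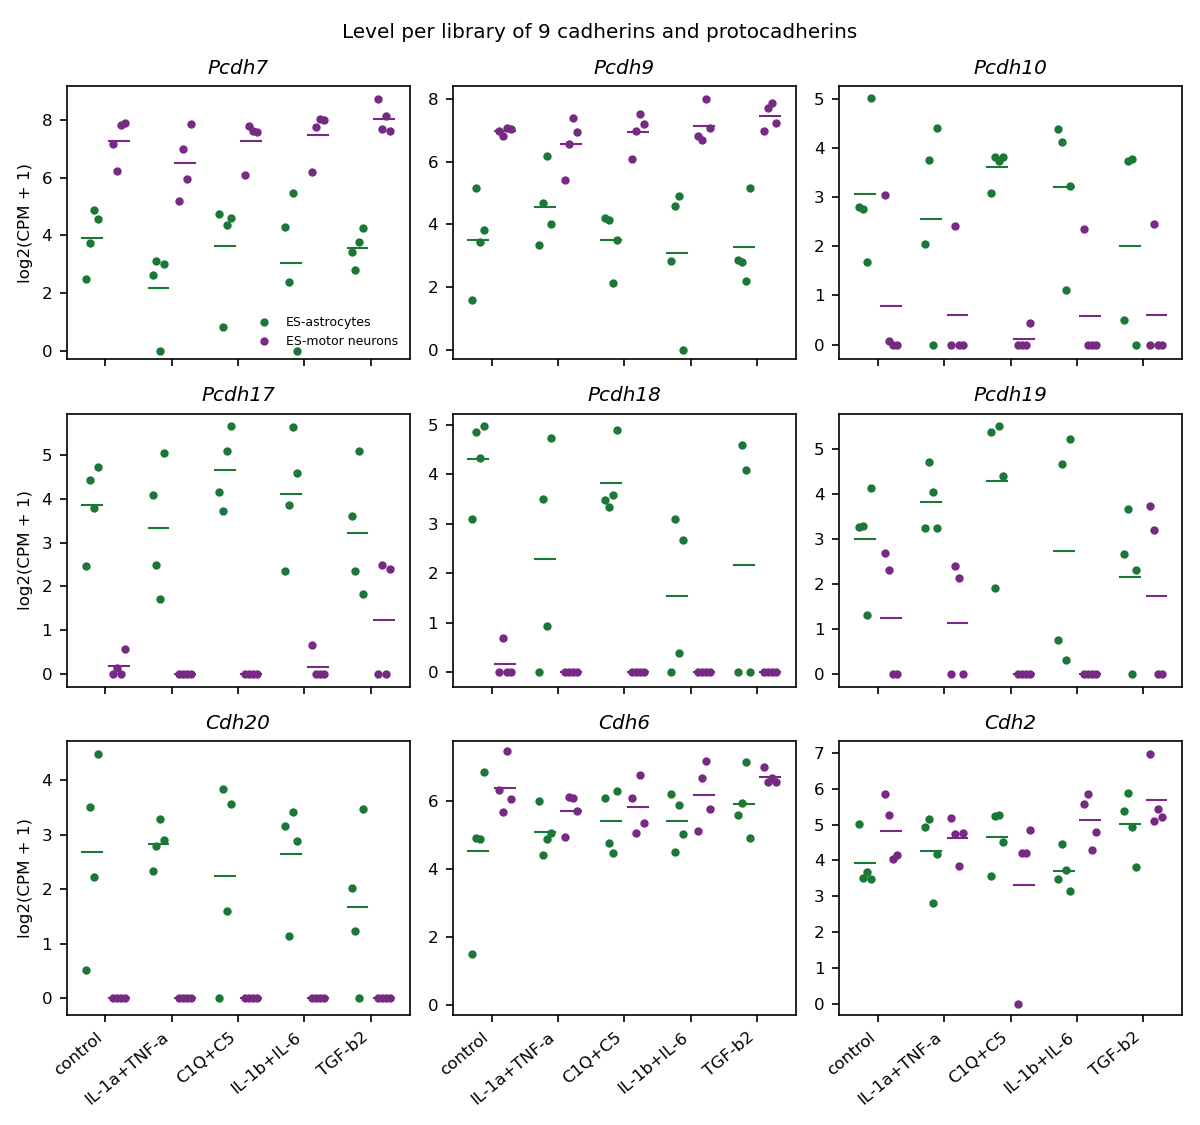
Level of 9 members in each of 40 libraries, as log2(CPM + 1), by treatment (control medium or stimulus of the ES-astrocytes) and cell type; short lines are means of 4 libraries. *Pcdh7* and *Pcdh9* sit higher in ES-motor neurons in all 5 treatments, while *Cdh20* has no count in any of 20 ES-motor neuron libraries.

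Promoter sequences were available for 22 of 91 member symbols, from RefSeq (GRCm38.p6), each with 250 bases before the start of the gene and 50 after it. All 5 delta-2 genes were among them, and their promoters are shown because 4 of these genes were lower together. The motif CCAAT was searched on both strands (as CCAAT or ATTGG) and was chosen after the sequences were seen. It occurred in all 5 delta-2 promoters and, counted by gene, in 15 of the 22 members with a sequence, where 37.4% of all 32851 promoters held it. The 22 members have 25 promoters, so the count by gene and the share of all promoters are not in the same unit. Of the delta-2 genes with the motif, *Pcdh8* was not called. Among the other called members, promoters of *Cdh20*, called lower, and of *Pcdh9* and *Pcdh15*, called higher, held it. That of *Pcdh7*, called higher, did not. A match is a description of letters, not of a bound factor. The 5 windows are chr3:45378148-45378447 on the plus strand for *Pcdh10*, chr14:84443313-84443612 on the plus strand for *Pcdh17*, chr3:49757267-49757566 on the minus strand for *Pcdh18*, chrX:133688944-133689243 on the minus strand for *Pcdh19* and chr14:79771263-79771562 on the minus strand for *Pcdh8*. Each is written 5′ to 3′ along its gene, with the motif in capitals.
Pcdh10: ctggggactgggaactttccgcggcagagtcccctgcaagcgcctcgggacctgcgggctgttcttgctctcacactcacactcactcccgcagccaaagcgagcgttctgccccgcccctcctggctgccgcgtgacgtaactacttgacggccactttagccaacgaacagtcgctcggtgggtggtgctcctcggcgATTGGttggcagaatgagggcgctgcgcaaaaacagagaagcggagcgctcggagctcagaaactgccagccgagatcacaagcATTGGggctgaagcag
Pcdh17: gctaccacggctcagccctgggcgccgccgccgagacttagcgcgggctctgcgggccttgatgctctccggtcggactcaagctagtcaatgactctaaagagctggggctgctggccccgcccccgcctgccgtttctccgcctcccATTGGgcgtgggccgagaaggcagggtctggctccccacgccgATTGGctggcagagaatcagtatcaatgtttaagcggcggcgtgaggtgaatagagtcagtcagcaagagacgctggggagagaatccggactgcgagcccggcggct
Pcdh18: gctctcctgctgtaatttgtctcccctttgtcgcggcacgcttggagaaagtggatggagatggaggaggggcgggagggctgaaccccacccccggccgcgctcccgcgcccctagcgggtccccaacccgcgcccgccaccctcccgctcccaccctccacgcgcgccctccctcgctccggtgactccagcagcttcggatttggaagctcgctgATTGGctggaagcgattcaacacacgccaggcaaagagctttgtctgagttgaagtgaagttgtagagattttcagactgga
Pcdh19: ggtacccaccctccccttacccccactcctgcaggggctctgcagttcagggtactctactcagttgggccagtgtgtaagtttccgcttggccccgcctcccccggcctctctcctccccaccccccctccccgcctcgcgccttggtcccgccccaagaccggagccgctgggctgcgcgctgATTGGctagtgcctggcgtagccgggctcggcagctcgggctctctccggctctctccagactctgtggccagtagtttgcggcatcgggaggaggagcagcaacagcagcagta
Pcdh8: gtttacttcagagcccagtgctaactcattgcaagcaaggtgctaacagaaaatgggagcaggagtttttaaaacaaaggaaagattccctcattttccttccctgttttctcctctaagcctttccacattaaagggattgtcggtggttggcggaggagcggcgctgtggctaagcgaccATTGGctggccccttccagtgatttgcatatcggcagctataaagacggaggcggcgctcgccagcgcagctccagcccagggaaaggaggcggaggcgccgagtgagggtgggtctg

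Of the remaining non-clustered genes, *Pcdh15*, a component of the tip links of inner ear hair cells, was counted in 9 of 20 ES-motor neuron libraries, at up to 17.4 CPM, and in 5 ES-astrocyte libraries, at up to 18.3 CPM. The ranges overlapped. It was called higher in ES-motor neurons (4.58, SE 1.38, adjusted p 0.0128), but not without the shallow libraries (4.25), within plate index 2 (3.04; it was not tested within plate index 1), without ES-motor neuron IL-1a+TNF-a replicate B (4.03) or without ES-motor neuron C1Q+C5 replicate C (4.17). With TGF-b2 alone its fitted difference had the opposite sign (-4.71, SE 2.40). *Pcdh20* had 33 counts, all from ES-astrocyte C1Q+C5 replicate B; with no count in ES-motor neurons, its level there was at least 6.09-fold lower. Such bounds set a group without counts at 3 counts over its libraries, 20 for a cell type and 4 in a comparison of a stimulus with control. They and the intervals cover counting error only, since the reads carry no molecular identifiers.

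The alpha cluster (chr18:36930184-37187661) has 14 member genes, among them 2 identifiers with the symbol *Pcdha11*. Each alpha gene has its own first exon, spliced to constant exons that all of them share, and in the deposited table the 14 genes had nearly the same counts. Their totals over all libraries ranged from 9799 to 9997, and 88.6% of their values equalled the lowest of the cluster in that library. Between 98.0% and 99.99% of a gene's counts were thus shared, so the 14 results below are a single measurement of the cluster and do not show which first exon was used. The shared alpha counts ranged from 0 to 168 CPM in ES-motor neurons, with a median of 99.3, and from 5.12 to 51.9 CPM in ES-astrocytes, with a median of 27.2. As many as 18 of 20 ES-motor neuron libraries lay above every ES-astrocyte library, and the single library without a count was C1Q+C5 replicate A, which held 6557 counts in all. All 14 genes were called higher in ES-motor neurons, with log2 fold changes from 1.85 to 1.91. By smallest p they were led by *Pcdha4* (1.91, SE 0.23, adjusted p 4.25e-09), *Pcdhac2* (1.90), *Pcdha8* (1.90), *Pcdhac1* (1.89) and *Pcdha5* (1.90), followed by *Pcdha12*, *Pcdha3*, *Pcdha7*, *Pcdha1* and *Pcdha6* (1.89 to 1.90). As 1 row of shared counts the cluster gave 1.89 (SE 0.23, adjusted p 7.37e-09), a form of the table chosen after seeing the data. Within the plates *Pcdha4* gave 1.94 and 1.98, and by treatment it ran from 1.41 with IL-1a+TNF-a to 2.50 with TGF-b2. What was left as own counts was small, 1 to 199 counts per gene, and was not called for *Pcdha3* (2.55) or for the second *Pcdha11* identifier (1.27), the alpha genes with enough own counts for a test.

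The gamma cluster (chr18:37661793-37841873) has 21 members of the same build, and its counts were shared in the same way, between 90.6% and 99.4% of a gene's total. Shared gamma counts ranged from 3.51 to 60.6 CPM in ES-astrocytes, with a median of 24.5, and from 0 to 80.5 CPM in ES-motor neurons, with a median of 14.8. The ranges overlapped almost fully. None of the 21 genes was called by edgeR, DESeq2 or limma-voom, and by edgeR none had an unadjusted p under 0.05. All their log2 fold changes were negative, from -0.66 to -0.30, and the shared counts gave -0.44 (SE 0.39). The members of highest level per length in ES-astrocytes were *Pcdhga4* (-0.66), *Pcdhga3* (-0.39) and *Pcdhga8* (-0.43). *Pcdhga4* had the most own counts of the cluster, an observation chosen after its values were seen: 453 counts beyond the shared ones in 8 of 20 ES-astrocyte libraries, at up to 38.2 CPM. No ES-motor neuron library had such counts, so their level was at least 83.6-fold lower. Tested as own counts *Pcdhga4* was called (adjusted p 0.00324). It was chosen for these counts and compared with a group without any, so the call adds nothing to them. Own counts of *Pcdhgb1* (69) also lay in ES-astrocytes alone, those of *Pcdhga7* (181 against 8) and *Pcdhgc3* (75 against 5) lay mostly there, and those of *Pcdhga1* (25) and *Pcdhga10* (26) lay in ES-motor neurons alone. All 5 were too low for a test. Own counts of the remaining gamma genes lay in both cell types. Those of *Pcdhgb4* (298 against 61), *Pcdhga12* (187 against 28) and *Pcdhga8* (179 against 39) were larger in ES-astrocytes. Those of *Pcdhga5* (27 against 94) and *Pcdhga2* (42 against 74) were larger in ES-motor neurons.

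The beta cluster (chr18:37264938-37524479) differs in build: each of its 22 genes is a single coding unit without constant exons, and no exon bases are common to all. Of the exon bases, 90.3% of *Pcdhb21* and 93.1% of *Pcdhb22* are unshared, as these genes overlap each other. Of *Pcdhb12*, which overlaps *Gm37446*, 36.5% are unshared. Of the 22 genes 1 to 19 were counted per ES-motor neuron library, with a median of 13, and 4 to 16 per ES-astrocyte library, with a median of 10, although the ES-motor neuron libraries were the shallower ones. Of 17 tested genes 4 were called, 23.5%, beside 14.9% of all genes, and all 4 were higher in ES-motor neurons. Of the 17, 15 had positive and 2 negative log2 fold changes, with a median of 1.29. The called genes, named after their values were seen, were *Pcdhb8*, *Pcdhb9*, *Pcdhb11* and *Pcdhb18*. *Pcdhb8* was counted in 13 ES-motor neuron libraries (median 5.03, highest 23.7 CPM) and in 4 ES-astrocyte libraries (highest 16.9 CPM), with a log2 fold change of 4.25 (SE 1.27, adjusted p 0.0119). *Pcdhb11* had a median of 18.7 CPM in ES-motor neurons (0 to 66.9) and 3.53 CPM in ES-astrocytes (0 to 33.4), a difference of 2.05 (SE 0.63, adjusted p 0.0147). The cell types overlapped for all 4. *Pcdhb9* (4.39, SE 1.56, adjusted p 0.0392) and *Pcdhb18* (2.99, SE 1.09, adjusted p 0.0465) were nearest to the threshold. None of the 4 was called without the shallow libraries (*Pcdhb8* 4.88, *Pcdhb9* 4.40, *Pcdhb11* 2.03, *Pcdhb18* 1.30), and within plate index 1 *Pcdhb8* (2.20), *Pcdhb11* (1.23) and *Pcdhb18* (3.37) were not called and *Pcdhb9* was not tested. Within plate index 2 *Pcdhb8* (5.90) and *Pcdhb11* (2.68) were called and the others were not (1.76 and 2.77), and in control libraries alone *Pcdhb8* was at -0.40.

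The calls of *Pcdhb9* and *Pcdhb18* also rested on single libraries. *Pcdhb9* was lost in 15 of 40 fits that left out 1 library (3.03 to 5.54 over all 40): any ES-astrocyte library of control or IL-1a+TNF-a, ES-astrocyte TGF-b2 replicates B, C and D, and ES-motor neuron control B, IL-1a+TNF-a B, C1Q+C5 C and TGF-b2 B. *Pcdhb18* was lost in 17 (2.29 to 3.73 over all 40): ES-astrocyte control A and C, any ES-astrocyte library of IL-1a+TNF-a or IL-1b+IL-6, ES-astrocyte C1Q+C5 A and TGF-b2 B, and ES-motor neuron control C, IL-1a+TNF-a B, C1Q+C5 C, IL-1b+IL-6 D and TGF-b2 A. With RLE size factors *Pcdhb18* was not called (2.98), nor without the filter on low counts (2.92). *Pcdhb8* and *Pcdhb11* were called in all 40 of these fits. *Pcdhb4*, counted in 6 ES-motor neuron and 3 ES-astrocyte libraries, did not pass the filter and was called by DESeq2, without the filter, without the shallow libraries and in 37 of 40 fits that left out 1 library, all those in which it passed the filter. Leaving out 1 library also called *Pcdhb19* in 8 fits and *Pcdhb5* in 2. In all, DESeq2 called 7 beta genes and limma-voom 10.

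Among the type II cadherins, 1 of 7 tested was called, 14.3%, which is near the 14.9% of all genes. *Cdh20* (chr1:104768529-104995481), the gene of MN-cadherin, a protein known from motor pool sorting in the chick, was counted in 18 of 20 ES-astrocyte libraries, with a median of 6.17 and a maximum of 21.4 CPM. No ES-motor neuron library held a count, and 2 ES-astrocyte libraries also had none. In the 9 shallow ES-motor neuron libraries 3 counts correspond to at least 6.73 CPM, above the ES-astrocyte median. Their zeros therefore do not set the cell types apart. With 835 counts against 0, the ES-motor neuron level was at least 154-fold lower; of the depth of that group, 30.3% lay in control replicate B. The fit called *Cdh20* (adjusted p 6.99e-06), and it was called within each plate index and without the shallow libraries. *Cdh6*, known from developing neural tissue and kidney, had the highest level per length of all *Cdh* genes in both cell types, with a mean of 8.83 ± 4.38 CPM per kb in ES-motor neurons and of 5.43 ± 3.81 in ES-astrocytes (SD, n = 20). It was counted in all 40 libraries, at 1.82 to 142 CPM in ES-astrocytes, with a median of 32.3, and at 29.6 to 177 CPM in ES-motor neurons, with a median of 68.3. The ranges overlapped and it was not called (0.69, SE 0.29, adjusted p 0.0937). *Cdh11*, first described in osteoblasts, was also not called (0.30, SE 0.66); it was counted in 16 libraries of each cell type, at up to 62.9 and 67.6 CPM. *Cdh22*, counted in 11 ES-astrocyte and 5 ES-motor neuron libraries, was not called either (-1.38, SE 1.28), nor were *Cdh7* (-1.41), *Cdh8* (0.50) and *Cdh10* (-1.20), each counted in fewer than 10 libraries of either cell type. The *Cdh22* value was -0.03 without ES-astrocyte control replicate B, -0.15 without the shallow libraries and -0.07 within plate index 2. By limma-voom *Cdh8* was called higher in ES-motor neurons (2.89, SE 0.78).

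Among type II cadherins too low for the test, *Cdh9* had its 12 counts in a single ES-motor neuron library, which puts the ES-astrocyte level at least 7.22-fold lower. *Cdh24* summed to 21 counts over the ES-astrocyte libraries against a single count elsewhere, with the ratio at 11.6 (95% Clopper-Pearson interval 1.87 to 481). *Cdh12* and *Cdh18* also did not pass the filter.

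The type I cadherins were represented by N-cadherin *Cdh2* and R-cadherin *Cdh4*, both typical of neural tissue, and neither was called by edgeR, DESeq2 or limma-voom. *Cdh2* ranged from 5.98 to 57.8 CPM in ES-astrocytes, with a median of 19.04, and from 0 to 124 CPM in ES-motor neurons, with a median of 27.3. The cell types overlapped in nearly all libraries (0.62, SE 0.31, unadjusted p 0.0540 and adjusted p 0.186 by edgeR). *Cdh4* had a median of 4.37 CPM among ES-astrocyte libraries against 5.26 CPM among those of ES-motor neurons (-0.37, SE 0.62). P-cadherin *Cdh3* had 1 count, in an ES-astrocyte library.

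Of the other *Cdh* genes, T-cadherin *Cdh13*, which is held in the membrane by a lipid anchor, had a median of 20.2 CPM in ES-astrocytes (0 to 150.5) and of 49.4 CPM in ES-motor neurons (0 to 169). It was the only one tested and was not called (1.38, SE 0.58, adjusted p 0.0977), except without ES-astrocyte C1Q+C5 replicate A, the library at 150.5 CPM (1.79), and by limma-voom (1.99). *Cdh23*, the partner of *Pcdh15* in tip links, had 111 counts in 9 ES-astrocyte libraries and 8 counts in 2 ES-motor neuron libraries. It did not pass the filter; without the filter it was called (-3.91), and so it was in the 37 of 40 fits without 1 library in which it passed the filter, but not by DESeq2 (-1.18, SE 1.81) or without the shallow libraries (-4.00, SE 1.48).

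Ordered by mean level per length, the members at the top differed between the cell types. In ES-astrocytes the shared gamma counts led with 11.7 ± 6.45 CPM per kb (SD, n = 20), followed by the shared alpha counts (9.33 ± 3.87), *Cdh6* (5.43 ± 3.81), *Pcdhb16* (3.07 ± 2.21), *Cdh2* (2.79 ± 1.74), *Cdh13* (2.52 ± 3.04) and *Pcdh9* (2.48 ± 2.44). Each of these differed from the next by less than its SD, except the shared alpha counts from *Cdh6*. In ES-motor neurons the shared alpha counts led with 33.7 ± 14.0 CPM per kb, followed by *Pcdh9* (20.4 ± 7.65), *Pcdh7* (17.5 ± 8.93), *Cdh6* (8.83 ± 4.38), the shared gamma counts (8.24 ± 9.21), *Pcdhb11* (5.81 ± 4.74) and *Cdh13* (5.00 ± 3.97). There the neighbours differed by less than the SD of the higher one throughout. Lengths are merged exon lengths, for shared counts the length of the exon bases that all genes of a cluster have in common, and oligo-dT priming may not cover all of it.

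The stimuli were compared with control within ES-astrocytes, 4 libraries against 4, and the 4 comparisons share their control libraries. By edgeR no member was called in any of them, and no gene at all (0% of all genes tested in each). With IL-1a+TNF-a 1 of 57 tested members had an unadjusted p under 0.05, beside 0.890% of all genes; with C1Q+C5 this was 2 of 57, beside 0.976%; with IL-1b+IL-6 it was 0 of 54, beside 1.16%; and with TGF-b2 it was 1 of 54, beside 1.26%. Median log2 fold changes of the members were -0.23, 0.48, 0.05 and -0.15, and those of all genes -0.08, -0.07, -0.07 and -0.06. Without the alpha and gamma genes, which share their counts, they were 0.61, 0.83, 0.06 and 0.73 over 22, 22, 19 and 19 members, so that the sign turned with IL-1a+TNF-a and TGF-b2. Limma-voom called no member either, and DESeq2 called 0, 1, 0 and 2 members in the same order. The share of all genes called by DESeq2 is not given, so these counts do not set the members apart from other genes. The members named next were chosen after their values were seen.

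*Pcdh8*, a delta-2 protocadherin whose rat homolog is known as arcadlin and is induced by neuronal activity, had no count in control replicates A to D. With C1Q+C5 it had 4.72, 6.50, 34.1 and 14.7 CPM in replicates A to D. The groups did not overlap, and over the group it was at least 104-fold higher with C1Q+C5. Control replicate B held 38.2% of the depth behind that bound, and without it the bound was 64.4-fold. EdgeR gave an unadjusted p of 0.00189 and an adjusted p of 1.00, whereas DESeq2 called it. In replicates A to D *Pcdh8* had 0, 17, 0 and 0 counts with IL-1a+TNF-a. It had 1, 28, 0 and 0 with IL-1b+IL-6 and 15, 0, 0 and 52 with TGF-b2. *Cdh4* had 5.36, 2.26, 1.46 and 1.37 CPM in control and 11.3, 12.7, 16.996 and 29.2 CPM with TGF-b2. Again the groups did not overlap, with a log2 fold change of 2.78 (SE 1.14) that edgeR did not call and 2.74 by DESeq2, which did. *Cdh4* was also high in single libraries of other stimuli, with 30.9 CPM in IL-1b+IL-6 replicate B (others 0.390 to 2.46). In replicates A to D it had 25, 10, 101 and 46 counts with IL-1a+TNF-a and 5, 80, 1 and 139 with C1Q+C5. *Pcdhb7* had 0.724 CPM in control replicate B and no count in the other 3 control libraries. It had 1.43, 17.8, 63.6 and 26.2 CPM with TGF-b2, where it did not pass edgeR's filter and DESeq2 called it (7.11). With IL-1a+TNF-a it had 3.01 to 4.97 CPM (4.13, SE 1.58) and with C1Q+C5 2.02 to 7.36 CPM (4.23, SE 1.66), all above the control libraries, and neither edgeR nor DESeq2 called those differences. With IL-1b+IL-6 it had 13.4, 12.5 and 2.50 CPM in replicates A to C and no count in replicate D, so that group overlapped with the control; it did not pass edgeR's filter there and DESeq2 did not call it. C1Q+C5 and TGF-b2 libraries were on plate index 2 and the control on plate index 1, so these differences cannot be told apart from one between plates.

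ES-motor neurons on stimulated ES-astrocytes were compared with those on control ES-astrocytes in the same way, again with shared control libraries. By edgeR, DESeq2 and limma-voom no member was called. With IL-1a+TNF-a 0 of 19 tested members had an unadjusted p under 0.05 by edgeR, beside 3.19% of all genes, and 0% of all genes were called; the 4 libraries of that stimulus were all shallow, which left 4479 genes to test. With C1Q+C5 it was 0 of 47 members, beside 4.38% of genes, with IL-1b+IL-6 0 of 51, beside 1.18%, and with TGF-b2 0 of 50, beside 2.78%. Of all genes 0%, 0% and 0.0126% were called. *Pcdh7* averaged 169.9 ± 76.3 CPM on control ES-astrocytes, 114 ± 88.6 with IL-1a+TNF-a, 168 ± 68.1 with C1Q+C5, 201 ± 88.8 with IL-1b+IL-6 and 277 ± 107 with TGF-b2 (SD, n = 4). *Pcdh9* and the shared alpha counts had their lowest means with IL-1a+TNF-a (106 ± 52.8 and 69.1 ± 30.5 CPM) and their highest with TGF-b2 (179 ± 50.6 and 132 ± 28.1 CPM), and each of these groups overlapped with the control.

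Whether the difference between the cell types varied with treatment was tested with the interaction of both over all 40 libraries. EdgeR called no member and no gene (0%), and 9 of 71 members had an unadjusted p under 0.05, beside 6.11% of all genes; no other tool was run for this test. These 9, named after their values were seen, were *Pcdhb21*, *Pcdh19*, *Pcdhb9*, *Pcdh15*, *Pcdhb8*, *Pcdhb7*, *Pcdhb14*, *Pcdh17* and *Pcdhb18*, with adjusted p values from 0.700 to 0.816. *Pcdh19*, for example, had a fitted difference of -0.16 with TGF-b2 and of -1.79 in control, and had no count in any ES-motor neuron library with C1Q+C5 or IL-1b+IL-6.

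Partner genes were compared in the same 40-library fit, in which 14.9% of all genes tested were called and the median log2 fold change was -0.21. Of 14 catenins and adherens junction partners 13 were tested and 2 called: alpha-E-catenin *Ctnna1*, which ties cadherins to actin, was lower in ES-motor neurons (-1.69, SE 0.26, adjusted p 1.25e-06) and the neural delta-catenin *Ctnnd2* higher (1.16, SE 0.30), while beta-catenin *Ctnnb1* was at -0.65 (SE 0.17, adjusted p 0.00303), a difference below the limit on fold change. The list had a median log2 fold change of -0.27. Of 16 other genes of the cadherin superfamily 10 were tested and 5 called, with a median of -0.29. The planar polarity genes *Celsr1* (-5.21, SE 0.88) and *Celsr2* (-1.16, SE 0.30) and the giant cadherin *Fat1* (-3.98, SE 0.67) were lower in ES-motor neurons, and *Clstn2* (1.58, SE 0.55) and *Ret* (3.97, SE 0.78), the receptor subunit for glial cell line-derived neurotrophic factor, were higher.

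Of 11 regulators of clustered protocadherin promoters, all tested, 1 was called, the cohesin subunit *Rad21* (-1.01, SE 0.20, adjusted p 1.74e-04); *Smc1a* (-0.99, SE 0.29, adjusted p 0.0108), just below the limit on fold change, and *Nipbl* (-0.64, SE 0.26) were next by p, and *Ctcf* was at -0.43 (SE 0.27). The median of that list was -0.64. Among genes of cadherin shedding, *Adam17* was called lower (-1.01, SE 0.36, adjusted p 0.0400), and *Psen2* (0.22, SE 0.56) and *Adam10* (0.02, SE 0.31) were not. Of 6 transcription factors of epithelial-mesenchymal transition only *Zeb1* (-0.49, SE 0.27) and *Zeb2* (0.11, SE 0.29) could be tested, and neither was called by edgeR or had an unadjusted p under 0.05; *Snai1*, *Snai2* and *Twist2* had counts in ES-astrocytes but none in ES-motor neurons. No gene of these 5 lists, nor of the marker lists, was called in a comparison of a stimulus with control.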

How the data were processed

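Read counts per gene, as deposited by the authors, were used for 40 libraries; reads were mapped with STAR at the sequencing facility, the sources used here do not give the genome build, gene models or program behind the counting, and identifiers were matched to GENCODE M21 (55227 of 55487 genes). The members and lists were chosen with earlier results of these data known. Genes were filtered with filterByExpr, scaled by TMM and fitted by quasi-likelihood in edgeR 4.0.16 (R 4.3.3), with p-values adjusted over all genes tested. Cell type was compared over 40 libraries with treatment as a term, each stimulus with control in its own cell type, 4 against 4, and the interaction over 40 libraries. SE is the size of the log2 fold change over the root of F. Named were, for each class, up to 10 called members by smallest p, the 3 highest per length in each cell type and the *Cdh* genes not counted, and of each list the 3 genes of smallest p; others were named after their values were seen. The lists were markers of motor neurons, neurons, astrocytes, neural progenitors, fibroblasts, endothelial, epithelial, oligodendrocyte, microglial and pluripotent cells, and genes of catenins, other cadherin superfamily, promoter regulators, epithelial-mesenchymal transition and shedding. Alternatives were DESeq2 1.42.0, limma-voom (limma 3.58.1), RLE factors, no filter, a replicate block, fewer libraries, and own counts of alpha and gamma genes. Fits were tested on simulated data. Depth limits precision in the 9 libraries below 491892 counts.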

Additional observations from a re-analysis of the deposited data

Results flagged for a closer look

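In 140 groups of 4 libraries, 15 libraries lay far from the other 3 of their group, with a gap above the critical value of Dixon for its range; chance marks about 1 in 20 groups. In ES-astrocytes these were, in CPM, *Cdh2* in control A (31.1, others 10.3 to 11.7), *Cdh4* in IL-1b+IL-6 B (30.9, others 0.390 to 2.46), *Cdh11* in IL-1b+IL-6 D (62.9, others 0 to 8.89), *Cdh13* in C1Q+C5 A (150.5, others 0.309 to 20.4) and *Cdh23* in C1Q+C5 A (6.07, others 0 to 0.513). *Pcdhb11* was high in IL-1a+TNF-a C (22.6, others 1.07 to 4.02) and IL-1b+IL-6 D (33.4, others 0 to 1.21). *Pcdh9* was high in TGF-b2 D (35.1, others 3.62 to 6.35), *Pcdh10* in control D (31.2, others 2.19 to 6.0) and *Pcdh18* in C1Q+C5 D (28.4, others 9.07 to 10.9), while *Pcdh10* was low in C1Q+C5 A (7.42, others 12.3 to 13.1).

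In ES-motor neurons *Cdh2* was high in TGF-b2 A (124, others 33.5 to 42.2), *Pcdhb18* in control C (61.6, others 2.87 to 5.43) and the shared gamma counts in IL-1b+IL-6 A (44.5, others 0 to 7.38). *Cdh11* in C1Q+C5 A (67.6, others 21.2 to 27.7) rests on 1 count in a library of 6557.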

How the results depend on the processing

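The 26 members called between the cell types became 29 by DESeq2, 33 by limma-voom, 25 with RLE, 27 without the filter, 20 without shallow libraries, 19 and 21 within the plates, and 25 to 30 leaving out 1 library. With a block for the replicate letters over all treatments it was 26, the same 26 members. The labels do not say whether a letter marks the same co-culture in both cell types. No fit paired the cell types within a co-culture. It was 1 with control libraries only, where fewer libraries were used, and 13 with alpha and gamma genes by own counts, chosen after seeing the data, where fewer members were tested. Directions reversed for *Cdh4* (0.18 by limma-voom, 1.10 in control only), *Cdh22* (1.22) and *Pcdh8* (0.60) by limma-voom, *Pcdhga3* by own counts (0.81) and *Pcdhb8* in control only (-0.40); the cause was not tested. DESeq2 called 1 member with C1Q+C5 and 2 with TGF-b2 in ES-astrocytes, and the cause was not tested. No share of all genes called is given here for any of these settings, so their counts do not set the members apart from other genes. Leaving out 1 library gave 0 to 0 in the stimulus comparisons and the interaction. Without shallow libraries, ES-motor neurons with IL-1a+TNF-a and the interaction could not be fitted. Depth limits what can be said of ES-motor neurons.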
